A study of Mus musculus with 7 samples.

Results

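The 9 genes described here, Ms4a1, Cd79a, Cd79b, Pax5, Cr2, Fcer2a, Blk, Bank1 and Tnfrsf13c, are B cell lineage genes. They were taken by symbol from a table of 22629 genes, and all 9 had a row. RNA was sequenced from 7 subcutaneous (s/c) tumors of C57BL/6 mice, 3 formed with sgScramble control PDA cells (tumors 1, 4 and 5) and 4 formed with sgScramble cells expressing icOVA (tumors 15, 16, 18 and 2). All 7 tumors arose from the same KPC line, a mouse pancreatic ductal adenocarcinoma (PDA) line from a mouse model that uses Pdx1-Cre and mutant Trp53. All were harvested 2 weeks after inoculation. The cells of both groups carried Cas9 and a non-targeting guide RNA with a puromycin selection marker. The C57BL/6 hosts were bought at 6 weeks of age and kept for 2 weeks before use. The icOVA cells carried a lentiviral vector with GFP and intracytoplasmic ovalbumin under a doxycycline-inducible promoter, and were sorted and single-cell cloned. They were induced by doxycycline in the food from the day of inoculation. Whether the sgScramble cells of these tumors were a clone or a polyclonal line is not given in the sources used here. Nor is it given whether they also carried this vector without induction, or whether their hosts also received doxycycline. The methods also give a larger inoculum for ovalbumin-inducible tumors than the number of cells used by default. Ovalbumin, GFP, cloning, inoculum and doxycycline therefore cannot be told apart in the comparison, and with 3 and 4 tumors the p-values measure the spread between these tumors.

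B cells recognize antigen through surface immunoglobulin, which signals through the paired chains CD79A and CD79B. The transcription factor Pax5 holds cells in the B cell lineage, and its loss accompanies the change into plasma cells, which secrete antibody and shut down much of the B cell surface program. Ms4a1 (CD20), Cr2 (complement receptor CD21), Fcer2a (the low-affinity IgE receptor CD23) and Tnfrsf13c (the receptor for the survival factor BAFF) mark mature B cells. Blk, a kinase of the Src family, and Bank1, a scaffold protein, act just inside the membrane in B cell receptor (BCR) signaling. In solid tumors B cells can lie scattered or gather in lymphoid aggregates beside T cells.

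Total counts were 30904855 to 37510591 per tumor. Counts of the ovalbumin transgene were 151, 85 and 92 without icOVA, compared with 6871, 10750, 3413 and 7989 in icOVA tumors 15, 16, 18 and 2. The source of the 85 to 151 counts in the sgScramble tumors was not tested. The groups still differed as labeled, with a log2 fold change of 5.99 (SE 0.47; edgeR quasi-likelihood test, adjusted p = 0.0143). Even this call depended on single tumors, with adjusted p = 0.0776, 0.111 and 0.0725 on leaving out tumor 1, tumor 5 or tumor 15. The 6 epithelial genes that mark the carcinoma cells (Epcam, Krt8, Krt18, Krt19, Krt7 and Cdh1) summed to 4360 to 4565 counts per 1000000 (CPM, with libraries scaled by edgeR's TMM factors) in the sgScramble tumors and 2877 to 4790 in the icOVA tumors. Against this, each of the 9 B cell lineage genes averaged fewer than 100 counts per tumor, and 4 of them averaged fewer than 10. The 3 counts that form the upper limit which a count of 0 allows came to 0.081 to 0.0959 CPM, so the lowest members stood near what these libraries could detect.

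B cell lineage transcripts were thus present but scarce in all 7 tumors, and none of the 5 members that could be tested differed between the groups past the threshold. For sgScramble tumors 1, 4 and 5 the 9 genes summed to 3.40, 5.65 and 5.47 CPM, compared with 7.91, 6.28, 6.87 and 6.93 CPM for icOVA tumors 15, 16, 18 and 2. The summed level was higher in each icOVA tumor than in each sgScramble tumor, with means of 7.0 ± 0.678 (SD, n = 4) and 4.84 ± 1.25 (SD, n = 3). Pax5 and Blk made up much of that sum. Without these genes the other 7 summed to 1.47, 2.04 and 3.52 CPM against 4.89, 1.52, 4.52 and 4.32, and the groups overlapped. Bulk RNA does not tell fewer B cells from less RNA per B cell.

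**Figure D1:**
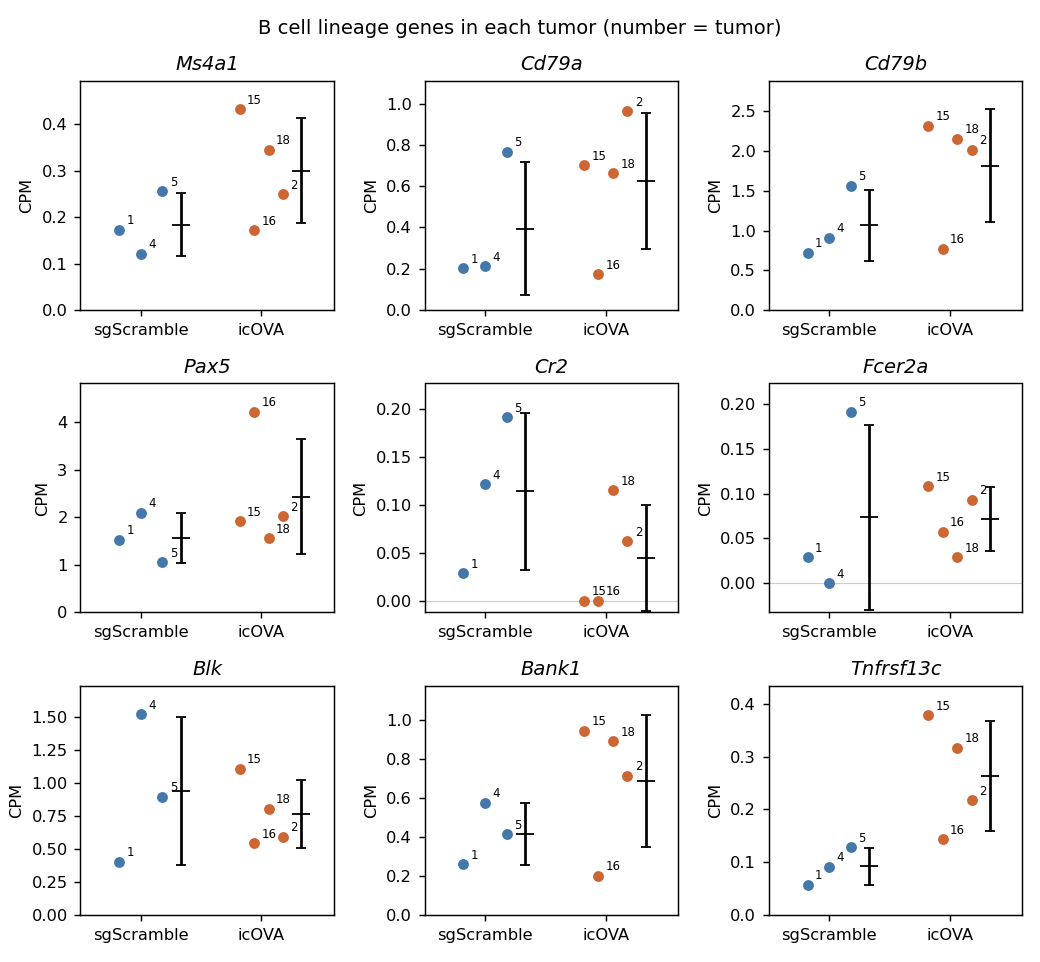
CPM of each of the 9 B cell lineage genes (vertical axes, separate scale per gene) in 3 sgScramble and 4 icOVA tumors. Points are tumors with their numbers, and the bar at the right of each group is the mean with its SD. The groups overlapped for every gene but Tnfrsf13c, and icOVA tumor 16 lay lowest of the icOVA tumors for 6 of the 9 genes.

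The chains of the BCR were the best measured of the surface genes. Cd79b (GRCm38, as for all positions here, chromosome 11, 106311341 to 106314762, minus strand) was counted 25, 30 and 49 times in sgScramble tumors 1, 4 and 5, compared with 86, 27, 75 and 65 times in icOVA tumors 15, 16, 18 and 2. Tumors 15, 18 and 2 of the icOVA tumors lay above all sgScramble tumors, and tumor 16 fell among the sgScramble tumors. Its mean level was 1.07 ± 0.444 CPM (SD, n = 3) without and 1.82 ± 0.707 CPM (SD, n = 4) with icOVA, and the log2 fold change was 0.77 (SE 0.43, 95% interval −0.23 to 1.78; edgeR, adjusted p = 0.288). Its partner Cd79a (chromosome 7, 24897381 to 24902197, plus strand) had 7, 7 and 24 counts against 26, 6, 23 and 31. Here sgScramble tumor 5 lay among the icOVA tumors, and icOVA tumor 16 was the lowest of all 7. The means of 0.394 ± 0.324 and 0.625 ± 0.330 CPM (SD, n = 3 and 4) gave a log2 fold change of 0.67 (SE 0.66, interval −0.86 to 2.2; edgeR, adjusted p = 0.543). Single tumors moved these values: the log2 fold change of Cd79a was 1.58 without sgScramble tumor 5, and that of Cd79b was 1.03 without icOVA tumor 16, with edgeR adjusted p = 0.322 and 0.0824. The proportion of the 2 chains varied within both groups, with 3.57, 4.29 and 2.04 Cd79b counts per Cd79a count in the sgScramble tumors and 3.31, 4.5, 3.26 and 2.10 in the icOVA tumors. The ratios of sgScramble tumors 1 and 4 and of icOVA tumor 16 rest on 6 or 7 Cd79a counts.

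The intracellular members split in direction. Bank1 (chromosome 3, 136053363 to 136326066, minus strand) was counted 9, 19 and 13 times without icOVA and 35, 7, 31 and 23 times with it. As for Cd79b, tumors 15, 18 and 2 lay above all sgScramble tumors, and tumor 16 was here below them. The log2 fold change was 0.72 (SE 0.53, interval −0.51 to 1.96; edgeR, adjusted p = 0.415). Blk (chromosome 14, 63372836 to 63417037, minus strand) had 14, 50 and 28 counts against 41, 19, 28 and 19. The highest and the lowest of the 7 tumors were both sgScramble tumors, 4 and 1. Its mean was 0.939 ± 0.559 CPM (SD, n = 3) without and 0.762 ± 0.257 CPM (SD, n = 4) with icOVA. The log2 fold change was −0.29 (SE 0.46, interval −1.36 to 0.77; edgeR, adjusted p = 0.713), and without sgScramble tumor 4 the value turned to 0.25 (adjusted p = 0.748). Blk is also made outside the B cell lineage, in plasmacytoid dendritic cells among others.

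Pax5 (chromosome 4, 44524757 to 44710487, minus strand), the factor that defines the lineage, did not follow the surface genes. Its counts were 53, 69 and 33 without icOVA, against 71, 147, 54 and 65 with it. Its highest value was in icOVA tumor 16, where Cd79a, Cd79b, Bank1, Blk, Ms4a1 and Tnfrsf13c were at their lowest among the icOVA tumors. The means were 1.56 ± 0.521 and 2.43 ± 1.21 CPM (SD, n = 3 and 4), with a log2 fold change of 0.64 (SE 0.40, interval −0.30 to 1.57; edgeR, adjusted p = 0.341) that was 0.23 without tumor 16. Per Cd79a count there were 7.57, 9.86 and 1.38 Pax5 counts in sgScramble tumors 1, 4 and 5, compared with 2.73, 24.5, 2.35 and 2.10 in icOVA tumors 15, 16, 18 and 2. Pax5 was thus high against Cd79a in sgScramble tumors 1 and 4 and in icOVA tumor 16, which were the tumors with 6 or 7 Cd79a counts. Its exons share 636 bases with 5730488B01Rik and 125 with Gm12462 on the opposite strand in the GENCODE M21 annotation (GRCm38). The methods name a guide for stranded libraries, but whether counting used the strand is not given in the sources used here, so reads from these genes and from Pax5 may not be separable.

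The remaining 4 genes were too low for the test, which asked for about 10 counts in at least 3 tumors. Tnfrsf13c (chromosome 15, 82221743 to 82224369, minus strand) was counted 2, 3 and 4 times without icOVA and 14, 5, 11 and 7 times with it. It was the 1 member of 9 whose groups did not overlap, and among the genes tested in all, 11.3% had every icOVA tumor above every sgScramble tumor. In an edgeR fit without the filter its log2 fold change was 1.5 (interval 0.32 to 2.67, adjusted p = 0.135). Pooled over tumors, the ratio of its CPM was 2.93, with an interval of 1.39 to 6.90 that covers counting error only. Ms4a1 (chromosome 19, 11249675 to 11266241, minus strand) had 6, 4 and 8 counts against 16, 6, 12 and 8. Tumors 16 and 2 lay within the sgScramble range, and the log2 fold change in the fit without the filter was 0.70 (adjusted p = 0.392).

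The complement and IgE receptors, which mark marginal zone and follicular B cells, were at the limit of detection. Cr2 (chromosome 1, 195136811 to 195176716, minus strand) was counted 1, 4 and 6 times without icOVA and 0, 0, 4 and 2 times with it. Fcer2a (chromosome 8, 3681737 to 3694175, minus strand) had 1, 0 and 6 counts against 4, 2, 1 and 3. Neither difference was detectable at this depth: the pooled ratio of icOVA to sgScramble was 0.389 (counting interval 0.118 to 1.15) for Cr2 and 1.02 (0.350 to 3.15) for Fcer2a, and the edgeR fit without the filter gave adjusted p = 0.497 and 0.999. Both genes reached their highest count, 6, in sgScramble tumor 5.

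Set beside all genes tested, the 5 tested members leaned toward the icOVA tumors without a call. Their log2 fold changes had a median of 0.67, with 4 of 5 above 0, while the median of all 17489 genes tested was −0.0048. Of all genes tested, 588 (3.36%) were higher and 444 (2.54%) lower in icOVA tumors. None of the 5 members was called in either direction by edgeR, DESeq2 or limma-voom, and none had an unadjusted p under 0.05 in edgeR. The smallest adjusted p of a member was 0.280 with DESeq2 and 0.355 with limma-voom, both for Cd79b. The intervals of Cd79a, Cd79b, Pax5 and Bank1 each reached past a log2 fold change of 1, so a fold change of that size was not distinguished from no change.

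Leukocyte and T cell transcripts were at higher levels in the icOVA tumors. Ptprc (CD45, carried by all leukocytes) was at 132, 175 and 116 CPM in the sgScramble tumors and 363, 258, 312 and 260 in the icOVA tumors, with a log2 fold change of 1.08 (SE 0.18; edgeR, adjusted p = 0.0271). Cd3e, a chain of the T cell receptor complex, had 320, 479 and 365 counts against 1302, 744, 1023 and 892, with a log2 fold change of 1.27 (SE 0.21; edgeR, adjusted p = 0.0271). Of 13 T cell genes 12 were higher, summing to 132 to 198 CPM against 282 to 443, with a median log2 fold change of 1.26. None of these calls, Ptprc and Cd3e included, held without sgScramble tumor 1, sgScramble tumor 5, icOVA tumor 15 or icOVA tumor 2, where the adjusted p of Ptprc was 0.131, 0.129, 0.0748 and 0.0619 and that of Cd3e 0.119, 0.134, 0.0748 and 0.0648. The members summed to 25.7, 32.2 and 47.2 counts per 1000 Ptprc counts in the sgScramble tumors and to 21.8, 24.3, 22.1 and 26.7 in the icOVA tumors. Cd79a and Cd79b together came to 10.0, 7.72 and 20 counts per 100 Cd3e counts against 8.60, 4.44, 9.58 and 10.8. These ratios overlapped between the groups.

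To compare the members at equal Ptprc or equal Cd3e, the edgeR fit was repeated with the count of either gene as library size. No member was higher in either fit. Relative to Ptprc the log2 fold changes were −0.51 for Cd79a, −0.40 for Cd79b, −0.35 for Pax5 and −0.38 for Bank1, with intervals that crossed 0 and edgeR adjusted p from 0.393 to 0.481. Blk was lower, by −1.36 (interval −2.25 to −0.48; edgeR, adjusted p = 0.00637). In that fit 0.4% of all genes were higher and 80.4% lower, with a median of −1.10 over all genes against −0.40 over the members, so a lower value for a single gene was the rule in the table. With the leukocyte gene Coro1a in place of Ptprc, Pax5 turned to 0.013 and Blk was at −1.04 (edgeR, adjusted p = 0.981 and 0.0452). Relative to Cd3e the values were −0.65, −0.55, −0.51 and −0.57 for Cd79a, Cd79b, Pax5 and Bank1, with adjusted p from 0.216 to 0.283, and −1.51 for Blk (interval −2.41 to −0.60; edgeR, adjusted p = 0.00231). There 0.314% of genes were higher and 84.2% lower, with a median of −1.27 over all genes and −0.57 over the members. Both calls of Blk held with each tumor left out in turn, at adjusted p of up to 0.0456. Without icOVA tumor 16, Pax5 was lower as well, at −0.86 relative to Ptprc and −1.15 relative to Cd3e (edgeR, adjusted p = 0.0487 and 0.00906). For fits with a tumor left out, the share of all genes called lower is not given here.

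**Figure D2:**
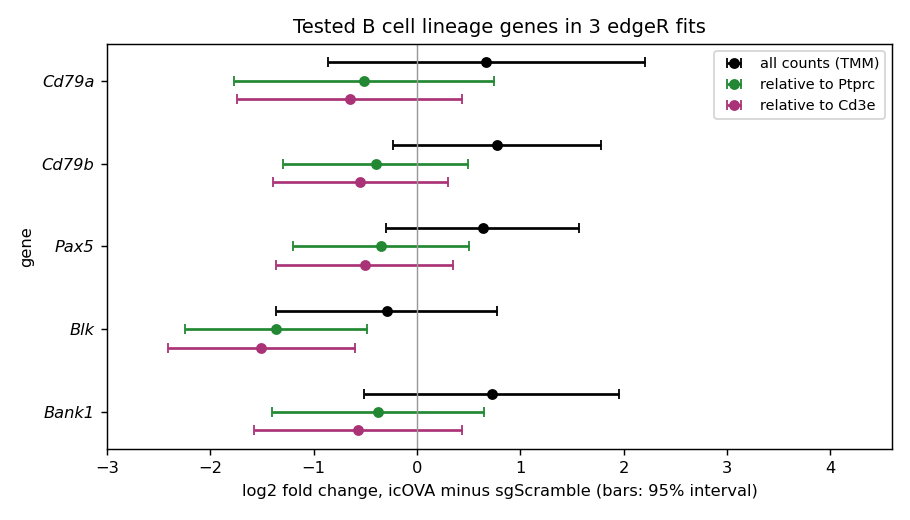
Log2 fold change of the 5 tested B cell lineage genes (icOVA minus sgScramble, horizontal axis) in the edgeR fit to all counts and in the fits relative to Ptprc and Cd3e. Points are estimates and bars 95% intervals. In the fit to all counts every interval crossed 0, and in the relative fits Blk alone lay below 0 with its whole interval. Of all genes tested, 80.4% were called lower relative to Ptprc and 84.2% relative to Cd3e.

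Levels per kilobase of exon allowed the members to be ranked against each other. Cd79b stood highest at 1.05 ± 0.483 CPM per kilobase (SD over the 7 tumors), above Cd79a in 7 of 7 tumors. Cd79a (0.361 ± 0.222), Blk (0.311 ± 0.142) and Pax5 (0.232 ± 0.115) followed. These 3 did not separate beyond their spread, since Cd79a exceeded Blk in 4 of 7 tumors and Blk exceeded Pax5 in 4 of 7. Pax5 exceeded Tnfrsf13c (0.0929 ± 0.0583 CPM per kilobase) in 7 of 7 tumors, and Bank1 (0.0764 ± 0.0394), Ms4a1 (0.0404 ± 0.0176), Fcer2a (0.0235 ± 0.0210) and Cr2 (0.00915 ± 0.00886) came last. In the sgScramble tumors alone the order of neighbours turned for Blk (0.348) over Cd79a (0.270) and for Bank1 (0.0557) over Tnfrsf13c (0.0450). On the same scale Cd3e ranged from 2.26 to 8.62 and Ptprc from 6.32 to 19.8 CPM per kilobase. The highest B cell lineage gene in any tumor, Cd79b at 1.62 CPM per kilobase, was thus below the lowest Cd3e.

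Across the 7 tumors Cd79a, Cd79b and Bank1 ran together. The root mean square difference of their z-scored log2 CPM was 0.325 for Cd79a and Cd79b, 0.476 for Cd79b and Bank1 and 0.689 for Cd79a and Bank1. Pax5 differed from each of the other 4 tested members by 1.41 to 1.62. These distances describe 7 tumors that differ in group and in leukocyte transcript levels. The genes nearest to the mean pattern of the tested members were Pmm2 (0.384), Nrm (0.386), Gdi2 (0.393), Fbxo9 (0.395), Neurl1b (0.399) and C130050O18Rik (0.402), out of 14126 genes considered. None of these 6 is in a B cell list, and their own log2 fold changes were 0.04 to 0.24.

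**Figure D3:**
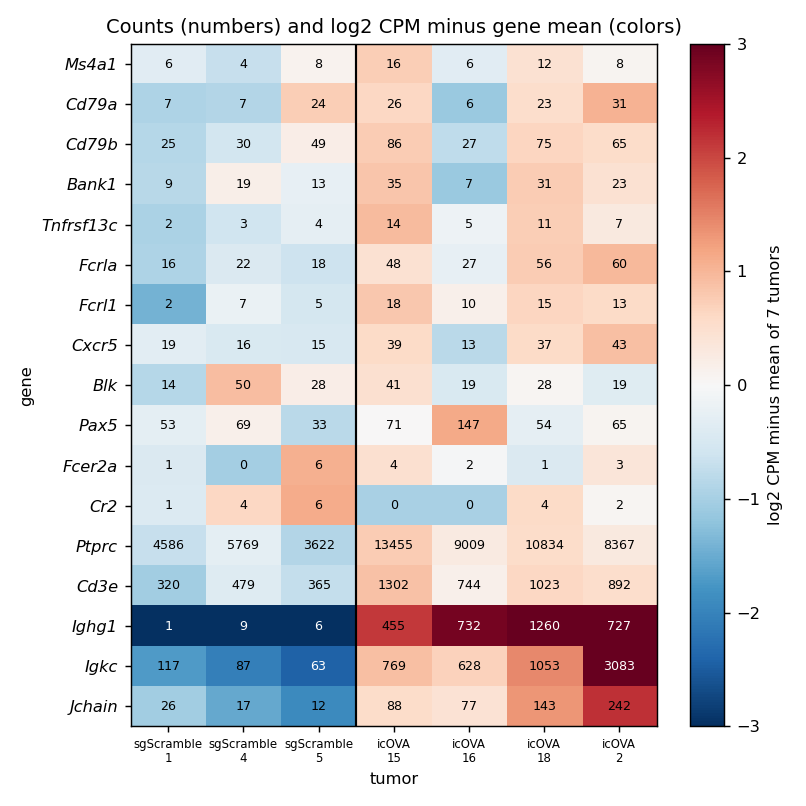
Counts (numbers) and log2 CPM minus the mean of the gene over the 7 tumors (colors, red higher and blue lower, saturating at a difference of 3) for the 9 B cell lineage genes, 3 other B cell genes, Ptprc, Cd3e and 3 genes of antibody secretion, with the sgScramble tumors to the left of the line. Ighg1, Igkc, Jchain, Ptprc, Cd3e, Fcrla, Fcrl1 and Tnfrsf13c had every icOVA tumor above every sgScramble tumor. The other genes shown overlapped between the groups.

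Cd79a, Bank1 and Tnfrsf13c were lowest among the icOVA tumors in tumor 16, and the bases before their start sites are shown for this shared pattern (RefSeq, GRCm38.p6, 250 bases before the start, 5′ to 3′ on the strand of the gene). Of the 9 members 6 had such an entry and Cd79b did not. The windows are chr7:24897247-24897496 on the plus strand for Cd79a, chr3:136326067-136326316 on the minus strand for Bank1 and chr15:82224381-82224630 on the minus strand for Tnfrsf13c. Capitals mark matches on either strand to 4 strings of letters: ATGCAAAT (the octamer of immunoglobulin promoters), CCCNNGGG (the core bound by EBF factors), TATAAA (the TATA box) and AGGAAGTG (an ETS site, chosen with the Cd79a sequence in view).
Cd79a: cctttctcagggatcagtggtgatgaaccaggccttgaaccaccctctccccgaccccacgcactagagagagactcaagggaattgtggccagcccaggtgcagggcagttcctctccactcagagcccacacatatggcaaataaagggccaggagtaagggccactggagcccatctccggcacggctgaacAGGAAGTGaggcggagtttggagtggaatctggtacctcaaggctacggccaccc
Bank1: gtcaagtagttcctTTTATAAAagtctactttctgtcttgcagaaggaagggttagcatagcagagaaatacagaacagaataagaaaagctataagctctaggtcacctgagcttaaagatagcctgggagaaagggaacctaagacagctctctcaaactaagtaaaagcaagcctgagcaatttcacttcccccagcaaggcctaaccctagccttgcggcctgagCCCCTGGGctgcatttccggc
Tnfrsf13c: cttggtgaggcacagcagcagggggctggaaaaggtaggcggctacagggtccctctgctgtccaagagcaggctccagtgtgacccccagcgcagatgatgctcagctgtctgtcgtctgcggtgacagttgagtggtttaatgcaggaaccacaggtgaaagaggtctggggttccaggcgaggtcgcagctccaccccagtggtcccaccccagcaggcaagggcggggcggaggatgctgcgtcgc
Cd79a held 1 match to AGGAAGTG, and Bank1 held 1 match to CCCNNGGG and 2 overlapping matches to TATAAA, 1 on each strand. The Cd79a window follows the RefSeq start and runs past the GENCODE start of 24897381 given above. Its marked match lies past that GENCODE start, so by GENCODE it is inside the gene. Tnfrsf13c held none of the 4. Among 32851 mouse promoters of the same length the share with a match was 1.6% for ATGCAAAT, 11.8% for CCCNNGGG, 12.4% for TATAAA and 3.14% for AGGAAGTG. No string was shared by the 3 windows, which says only that these letters are not in them.

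The other B cell genes, 82 in 7 lists of which 71 could be tested, included called genes. Of the 71 genes 37 (52.1%) had every icOVA tumor above every sgScramble tumor, and 5 had every icOVA tumor below. Over all 17489 genes tested these were 1983 (11.3%) and 2332. By edgeR 23 of the 71 genes were called higher and 1 lower, against 3.36% higher and 2.54% lower over the whole table. Their median log2 fold change was 0.81. The count of higher calls rested on single tumors. It was 0 without sgScramble tumor 1, without sgScramble tumor 5 or without icOVA tumor 15. It was 2 without icOVA tumor 2 and 36 without icOVA tumor 16. The genes of BCR signaling (17, all tested) had 5 higher and 0 lower, with a median of 0.70. The 5 calls became 0 without any of these tumors but icOVA tumor 16, 10 without tumor 16 and 8 without sgScramble tumor 4. These were Syk (1.03), the kinase that binds the phosphorylated CD79 chains, Pik3cd (0.99), Vav1 (0.86), Ptpn6 (0.61) and Fcgr2b (0.57), and each of them also serves other leukocytes. Lyn, the Src family kinase that starts the BCR signal, was at 0.60 (edgeR, adjusted p = 0.0582), and Cd81 was at −0.09 (adjusted p = 0.596). Cd22, an inhibitory coreceptor of B cells singled out after its values were seen, was at 0.80 (edgeR, adjusted p = 0.0623).

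Among 11 transcription factors of the lineage 5 were higher and 0 lower, with a median of 0.79. The count was 0 without sgScramble tumor 1, sgScramble tumor 5, icOVA tumor 15 or icOVA tumor 2, and 2 without icOVA tumor 18. Bcl11a (1.62), Spib (1.40), Ikzf3 (1.23), Ikzf1 (1.15) and Irf8 (0.79) passed. Each of them is also made in other leukocytes, among them plasmacytoid dendritic cells or T cells. Foxo1 was at −0.15 and Tcf3 at −0.35, with edgeR adjusted p = 0.501 and 0.0623. Of the factors closest to Pax5, Ebf1 was at 0.75 (adjusted p = 0.316) and Pou2af1 at 0.64 (adjusted p = 0.427), both looked up after their values were seen. Ebf1 had 228 to 929 counts per tumor, above every member in every tumor, and which cells made it was not tested. Of 15 other B cell surface genes tested of 17 listed, 4 were higher and 0 lower, with a median of 0.96, and this count was 9 without icOVA tumor 16 and 0 without any of the 4 tumors that ended the calls of the transcription factors. Ly6d (1.56), Btla (1.08), the costimulatory receptor Cd40 (0.96) and Cd200 (0.94) passed, while Cd24a (−0.50) and the class II transactivator Ciita (0.21) did not. Cd24a had 4934 to 11051 and Ciita 3132 to 4888 counts per tumor, far above every member. Which cells made them was not tested. Fcrla (1.28), Fcrl1 (1.48) and Cxcr5 (0.92), which are more particular to B cells and were singled out later, had edgeR adjusted p = 0.0676, 0.0892 and 0.206.

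B cell precursor, germinal center and BAFF genes were sparsely measured. Of 7 precursor genes 3 were in the table and 2 were tested. Dntt, which adds bases to rearranging receptor genes, was higher (1.94; edgeR, adjusted p = 0.0360, and up to 0.162 with a tumor left out), and Cd93 was at 1.04 (adjusted p = 0.0751). Cd93 had 1538 to 5869 counts per tumor, while the untested precursor gene Vpreb1 had 2 to 10. Which cells made Dntt and Cd93 was not tested. Of 7 germinal center genes 4 were tested and 0 called, with a median of 0.37. Bcl6 was at −0.07 and S1pr2 at 0.25. The ligand and receptor genes around Tnfrsf13c (4 listed, 3 tested) had 0 calls and a median of 0.12. Tnfsf13b, which encodes BAFF, was at 0.12 (edgeR, adjusted p = 0.581), and Tnfrsf13b, which encodes the BAFF and APRIL receptor TACI, was at 0.62 (adjusted p = 0.145).

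**Figure D4:**
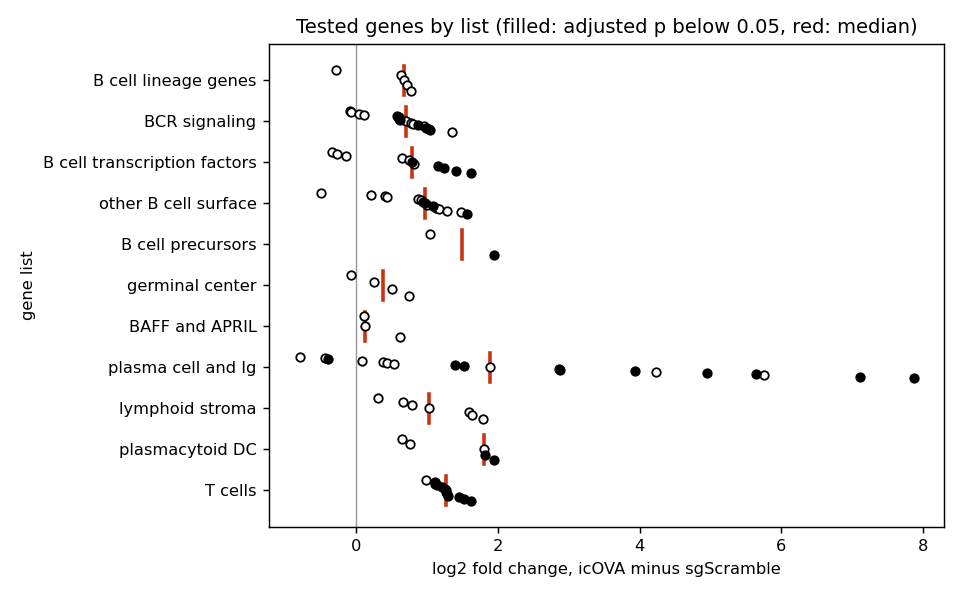
Log2 fold change (icOVA minus sgScramble, horizontal axis) of each tested gene, 1 row per gene list. Filled points had an edgeR adjusted p below 0.05, open points did not, and the red bar is the median. All 5 B cell lineage genes are open points, between −0.29 and 0.77, and the plasma cell and immunoglobulin row reaches 7.87.

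Genes of antibody secretion included many whose groups did not overlap. Of 19 plasma cell and immunoglobulin genes 12 had every icOVA tumor above every sgScramble tumor, against 11.3% of all genes, and 3 (Derl3, Xbp1 and Sdc1) had every icOVA tumor below. Of these 19 genes 8 were higher and 1 lower, with a median log2 fold change of 1.89. All 8 higher calls were lost on leaving out tumor 1, tumor 5 or tumor 15, and 2 genes were called higher without icOVA tumor 2. No gene of the list was called lower without sgScramble tumor 1 or 5 or without icOVA tumor 15, 18 or 2. Ighg1, the constant region of IgG1, was counted 1, 9 and 6 times without icOVA and 455, 732, 1260 and 727 times with it (log2 fold change 7.12; edgeR, adjusted p = 0.0143). Ighg3 was at 5.65 (adjusted p = 0.0393). Mzb1, a chaperone of plasma cells, had 0 counts in each sgScramble tumor and 24, 17, 27 and 49 in the icOVA tumors, at least 9.42-fold higher against a floor of 3 counts per tumor. Xbp1 was lower (−0.40; adjusted p = 0.0487), and Sdc1 (−0.44) and Prdm1 (0.52) did not pass. These last 3 genes are also used by epithelial or other cells. Ighd, carried with IgM by naive B cells and singled out later, was at 0.43 (adjusted p = 0.601).

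The 11 immunoglobulin constant genes together reached 19.6, 19.9 and 17.0 CPM in sgScramble tumors 1, 4 and 5, compared with 85.2, 64.7, 116 and 274 CPM in icOVA tumors 15, 16, 18 and 2. The groups did not overlap in this sum, but the genes did not move alike. Igha, Ighd, Iglc1 and Iglc2 each overlapped between the groups, with Igha at 0.08 (edgeR, adjusted p = 0.927). In icOVA tumor 2 Igkc was at 95.8 CPM and Ighg2b at 86.2 CPM. Ighg2b was at 1.35, 1.35 and 1.93 CPM in icOVA tumors 15, 16 and 18, and it was not called (edgeR, adjusted p = 0.121). For each count of the 9 B cell lineage genes there were 5.76, 3.52 and 3.11 immunoglobulin counts in the sgScramble tumors and 10.8, 10.3, 16.8 and 39.5 in the icOVA tumors. The ratio was higher in every icOVA tumor than in every sgScramble tumor. Tumor 2, with the highest immunoglobulin level, had a summed member level (6.93 CPM) close to that of tumor 18 (6.87 CPM), and tumor 16, with the lowest Cd79a, still had more immunoglobulin than any sgScramble tumor.

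**Figure D5:**
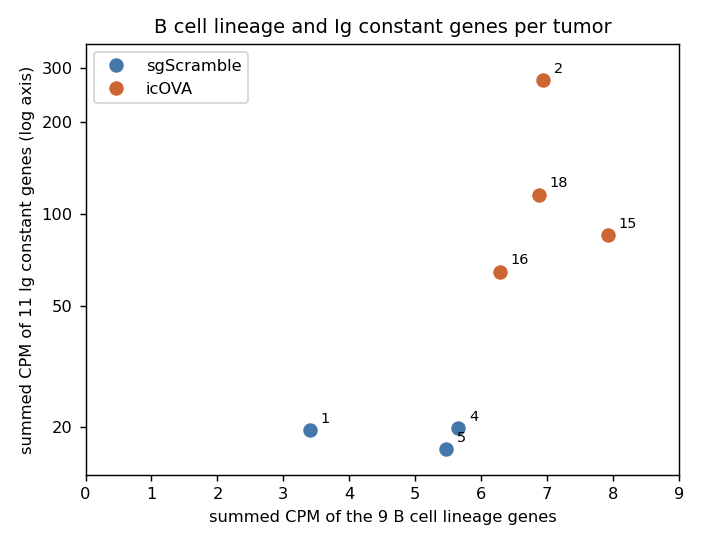
Summed CPM of the 9 B cell lineage genes (horizontal axis) against summed CPM of 11 immunoglobulin constant genes (vertical log axis), with 1 numbered point per tumor. Immunoglobulin ranged from 17.0 to 19.9 CPM in the sgScramble and 64.7 to 274 CPM in the icOVA tumors, while the members ranged from 3.40 to 5.65 and 6.28 to 7.91 CPM.

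Lists of markers of other cells were read beside the members. Among plasmacytoid dendritic cell genes, 2 of 5 were higher (Ccr9 at 1.94 and Siglech at 1.81), and the list summed to 4.6 to 8.54 CPM against 11.7 to 19.0. Macrophage genes had 2 of 6 higher and natural killer genes 1 of 4, with medians of 0.63 and 0.89. None of these dendritic, macrophage and natural killer calls held without sgScramble tumor 1, sgScramble tumor 5, icOVA tumor 15 or icOVA tumor 2. The 5 dendritic cell, 5 neutrophil, 6 fibroblast and 6 epithelial genes had 0 calls each, with medians of 0.64, 0.53, 0.92 and 0.05. The 8 genes of lymphoid tissue and its stroma (7 tested) had 0 calls and a median of 1.03, with Ltb at 1.03 (edgeR, adjusted p = 0.0610) and Ccl21a at 0.79 (adjusted p = 0.765). The 7 blood genes, of red cells and platelets, had 0 calls and a median of 1.06, and summed to 21.2 to 53.7 CPM against 29.2 to 97.4. Genes of neighbouring skin, muscle and fat had 0 of 4 tested called and a median of 0.15. The part of these other cells, of blood or of adjoining lymphoid tissue in the member values was not tested.

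Tumor 16 differed from the other icOVA tumors for most members. It was the lowest icOVA tumor for 6 of the 9 members (66.7%), for 13 of 13 T cell genes and for 7 of 7 blood genes, against 29.1% of all genes tested. It also had the highest ovalbumin count of the 7 tumors. Without it the median log2 fold change of the tested members was 0.98, and still no member was called by edgeR.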

How the data were processed

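The authors deposited raw read counts per gene for 7 s/c tumors as 1 table of whole numbers. Reads were single-end, 76 bases long, from libraries of polyA RNA per the labels, while the methods name a guide for stranded total RNA libraries, and were mapped to mm10. The aligner, the counter, the annotation and the strand setting are not given in the sources used here. Of 22629 identifiers, 22414 matched a symbol in GENCODE M21 (GRCm38).

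Low genes were removed with filterByExpr (count 10, total 15), and the rest were tested with the quasi-likelihood test of edgeR 4.0.16 in R 4.3.3, with TMM scaling, group as the only term and Benjamini-Hochberg adjustment over all 17489 genes kept, at 0.05. Fits relative to Ptprc or Cd3e took that gene's count as library size, so their changes are ratios to that gene. Intervals of pooled count ratios and the floor of 3 counts cover counting error only. Log2 CPM used a prior count of 2. DESeq2 1.42.0, limma-voom (limma 3.58.1), other scalings, filters, a minimum fold change and leaving out each tumor were alternatives. The scripts were tested on simulated counts.

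The members and gene lists were chosen with earlier results of these data known. Named genes were all members, ovalbumin, Ptprc, Cd3e, up to 3 called and up to 2 abundant uncalled genes per list, and the 6 genes nearest the mean member pattern. Any other gene was picked out after its values were seen. Some items that the lists count are not reported here by name. No pair of tumors agreed within sampling noise (chi-square per degree of freedom 15.5 to 160).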

Additional observations from a re-analysis of the deposited data

Results flagged for a closer look

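Cd79b in icOVA tumor 16 stood apart from the other icOVA tumors. Its log2 CPM was −0.26, against 1.25, 1.15 and 1.06 in tumors 15, 18 and 2, so the gap to the nearest tumor was 0.871 of the range of the group, above Dixon's 95% critical value for 4 samples. The 9 members were examined in this way, for which chance gives 0.45 such cases, and 1 was found. Bank1 came close, at 0.808.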

How the results depend on the processing

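No B cell lineage gene was called higher under any alternative run. Their median log2 fold change was 0.57 to 0.68 under the alternatives with all tumors and 0.47 to 0.98 with a tumor left out, and with a prior count of 0.5 the median difference in log2 CPM was 0.58 in place of 0.56. Single member values held their sign and call in 40 cases with all tumors and 60 with a tumor left out. Blk turned once, ranging from −0.66 to 0.25 with a tumor left out, Pax5 relative to leukocytes turned to 0.013 with Coro1a in place of Ptprc, and the other 2 changes were the calls of Pax5 without icOVA tumor 16. The relative values of Blk and Pax5 under alternatives were computed after seeing the data. Genes called higher over the whole table numbered 588, against 1558 with DESeq2, 2 with a minimum log2 fold change of 1, and 0 to 1014 with a tumor left out. Other B cell genes called higher numbered 23, against 38 with DESeq2, 1 with the minimum fold change, and 0 to 36 with a tumor left out. The cause was not tested. Tumors were compared between groups as unpaired samples. The legend of the paper's heat map speaks of paired sgScramble and icOVA-expressing cells. Which tumors belong together is not given in the sources used here, and their numbers differ between groups, so no paired analysis was made. Depth limits Cr2 and Fcer2a, with 0 to 6 counts per tumor.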
